A study of Mus musculus with 15 samples.

Results

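Chemokines are small secreted proteins that direct the movement of leukocytes, and their receptors are G protein-coupled receptors on the responding cells. All genes with a symbol of the chemokine ligand series (Ccl, Cxcl, Cx3cl, Xcl), of the matching receptor series (Ccr, Cxcr, Cx3cr, Xcr) or of the atypical receptors (Ackr) were taken from the count data, which gave 61 of the 24982 genes. Of these, 39 code for ligands and 22 for receptors. Pf4 and Ppbp, which are also chemokines, and the related receptor Ccrl2 have other symbols and were not members.

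RNA-Seq was performed on whole aortas of 10-month-old male wild-type mice, C57BL/6 by the labels and C57BL/6J by the study, 1 aorta per library and 5 libraries per group. All mice received Aldo-salt, which is aldosterone at 200 µg/kg per day by osmotic minipump with 0.9% NaCl and 0.2% KCl in the drinking water, for 7 days. The control mice were sham-operated 2 weeks earlier. The orchiectomized mice had lost their testes at that time, and the DHT-treated orchiectomized mice also received a pellet of dihydrotestosterone (DHT), an androgen that activates the androgen receptor directly. The control is therefore not an untreated aorta, and no group without Aldo-salt was analysed here. Each library held 8268957 to 13816864 reads on genes (median 10930079).

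Chemokine ligands bind receptors in a partly redundant way, so that 1 ligand can engage several receptors and 1 receptor several ligands. Ccl2 and Ccl7 recruit monocytes through Ccr2, Cxcl12 holds or attracts cells through Cxcr4, and Cxcl13 and Ccl19 organize B and T cells through Cxcr5 and Ccr7. The atypical receptors take up ligands without coupling to G proteins, and Ackr3 removes Cxcl12 in this way. In the arterial wall, chemokines are known for bringing monocytes and lymphocytes into the adventitia.

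Of the 61 members, 33 had at least 10 counts in 5 or more of the 15 libraries and were tested, 21 of them ligands and 12 receptors. Another 24 had counts but did not pass, and 4 (Ccl21a, Ccl21b, Ccl21c and Ccl27b) were listed at 0 in every library. Those 4 genes have near-identical copies in the mouse genome, whose reads may be lost in counting, so their 0 counts are uncertain. Levels are given as counts per 1000000 reads on tested genes (CPM) after TMM scaling, and a count of 10 corresponded to 0.687 to 1.28 CPM in these libraries. Fold changes are on the log2 scale from edgeR's quasi-likelihood test fitted to the 14191 tested genes in all 15 libraries. A gene was called changed at an unadjusted P under 0.01, the threshold of the study, and the values printed are Benjamini-Hochberg adjusted P over all tested genes, so that a called gene can have an adjusted P above 0.05.

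The library of orchiectomized replicate 2 carried lung transcripts. The 11 lung genes examined (among them Sftpc, Scgb1a1 and Ager) summed to 7590 CPM there and to between 4.17 and 43.6 CPM in the other libraries. Orchiectomized replicate 3 had the highest sum of 7 thymus genes at 75.6 CPM, against 0 to 5.91 CPM in the other libraries. The sum of 9 B cell genes was 195, 50.4 and 87.4 CPM in orchiectomized replicates 2, 3 and 4 and 4.21 to 16.0 CPM in all other libraries. Markers of the labelled tissue were present, with 7 smooth muscle genes summing to 10300 to 24600 CPM, the lowest value being that of orchiectomized replicate 2. Called changes of the tested members against the orchiectomized group are therefore given with and without replicate 2.

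Several members were found almost only in that library. Counts of Cxcl15, a chemokine of the lung epithelium, were 0, 0, 0, 1 and 0 in the control libraries, 1, 3712, 4, 7 and 1 in the orchiectomized libraries and 1, 0, 0, 0 and 0 with DHT. The airway chemokine Cxcl17 gave counts of 1, 3, 0, 0 and 6 in the control libraries, 2, 704, 3, 5 and 0 in the orchiectomized libraries and 0, 0, 2, 1 and 2 with DHT. Ccl20, a ligand of Ccr6, had 58 counts in orchiectomized replicate 2 and 0 in the other 14 libraries, and Cxcl5, a neutrophil attractant, had 69 counts against 0 to 6 elsewhere. These 4 members were not tested, because 1 library alone exceeded 10 counts. Ccl17 likewise had 60 counts there and 0 to 8 in the other libraries.

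**Figure D1:**
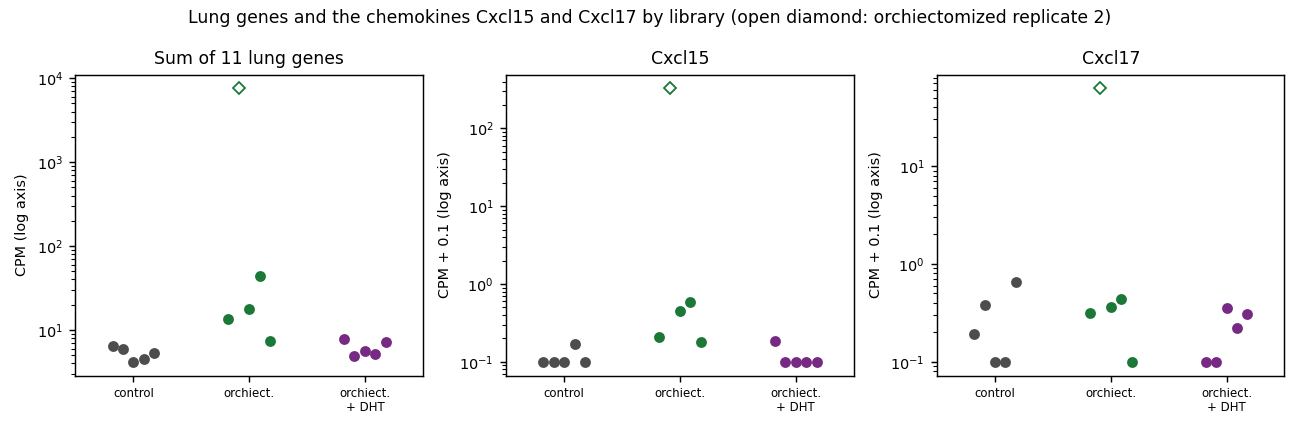
Summed CPM of 11 lung genes (left) and CPM plus 0.1 of Cxcl15 (middle) and Cxcl17 (right) by library, on log axes. Each point is 1 library of the control, orchiectomized and DHT-treated orchiectomized (orchiect. + DHT) groups, and the open diamond is orchiectomized replicate 2, which reached 7590 CPM of lung genes, 328 CPM of Cxcl15 and 62.2 CPM of Cxcl17.

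Per kilobase of exon, the highest members in the control aortas were Ackr3 with a level of 39.8 CPM per kb, Cxcl12 with 37.5, Ccl6 with 32.6, Ccl8 with 29.8 and Ccl11 with 23.4. Ackr3 and Cxcl12 differed by less than the spread between mice, and the range of Ccl8 over the control libraries, 4.35 to 28.2 CPM, spanned several fold. Ccl6 and the next member in that order, Ccl9 at 12.1 CPM per kb, are myeloid cell chemokines of rodents. The 11 other tested receptors had control levels of 2.63 CPM per kb (Cxcr4) or less.

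The question of the study was what loss of androgen and its replacement change in the Aldo-salt aorta. The largest number of called members was found when DHT-treated were compared with untreated orchiectomized mice. In this comparison 11 of the 33 tested members were lower with DHT, against 7.35% of all tested genes, and 1 (Ccl27a) was higher, against 2.44%. At an adjusted P under 0.05, 7 members were lower (3.89% of all tested genes) and Ccl27a was higher (0.93%). The median log2 fold change was -0.92 over the tested members and -0.02 over all tested genes, and 26 of the 33 members lay below 0. Without orchiectomized replicate 2, 9 of 32 tested members were lower (5.22% of all tested genes), 4 of them at an adjusted P under 0.05 (1.92%), 1 was higher (3.12%), and the median was -0.62. By kind, 5 of 21 ligands (Ccl2, Ccl5, Ccl6, Ccl7 and Cxcl16) and 6 of 12 receptors (among them Ccr1, Ccr2, Cxcr6, Ackr2 and Ackr3) were lower.

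**Figure D2:**
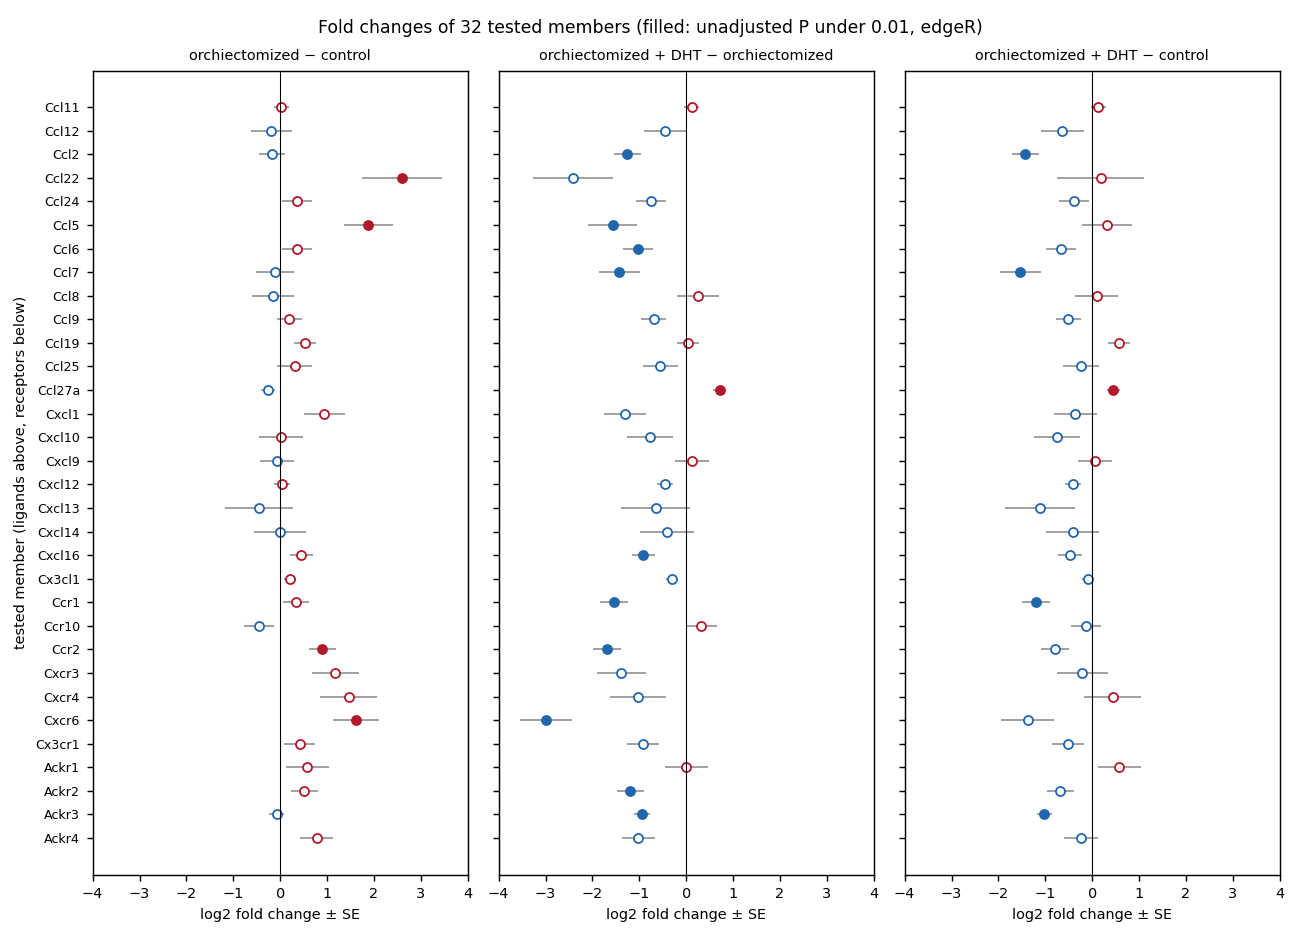
Log2 fold changes (points) with standard errors (bars) of 32 of the 33 tested members in the 3 comparisons, ligands above and receptors below. Filled points passed an unadjusted P under 0.01 in edgeR, which applied to 4 higher members in orchiectomized against control mice (left), 10 lower and 1 higher member in DHT-treated against untreated orchiectomized mice (middle), and 4 lower and 1 higher member in DHT-treated orchiectomized against control mice (right).

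In orchiectomized against control mice, 4 tested members were higher (Ccl5, Ccl22, Cxcr6 and Ccr2, against 2.11% of all tested genes) and 0 were lower (1.12%). The smallest adjusted P over all genes was 0.0962, and 0 members passed after adjustment (0% of all tested genes in either direction), while 9 members were higher (7.41% of all tested genes) and 0 lower (4.57%) at an unadjusted P under 0.05. DESeq2 called 4 members higher (2.21%) and 0 lower (2.23%). Without orchiectomized replicate 2, 0 members were called in edgeR (0.823% of all tested genes were called higher and 0.958% lower). At an unadjusted P under 0.05 there, 4 were higher (3.11%) and 2 lower (4.29%), and DESeq2 called 1 higher (1.09%) and 1 lower (1.66%). The members' median log2 fold change was 0.31 with all libraries and 0.13 without this replicate.

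In DHT-treated orchiectomized against control mice, 4 tested members were lower (Ackr3, Ccl2, Ccl7 and Ccr1, against 2.01% of all tested genes) and 1 was higher (Ccl27a, against 1.53%). At an adjusted P under 0.05, Ackr3 alone was lower (0.148% of all tested genes) and 0 members were higher (0.113%). This comparison does not involve the orchiectomized libraries other than in the shared count filter, scaling and estimate of the spread. Without orchiectomized replicate 2 in the fit 5 members were lower (2.52%), Ccr2 being the addition, and 2 of them, Ackr3 and Ccl2, after adjustment (0.433%). The median log2 fold change of the tested members was -0.42 against 0.00 for all tested genes. Each group enters 2 of the 3 comparisons, so the comparisons share libraries and are not independent of each other.

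Ackr3, the atypical receptor that scavenges Cxcl12 and Cxcl11, was the member with the smallest P value in both comparisons that involve DHT. Its level was 147, 95.8, 145, 132 and 147 CPM in the control mice, 129, 99.5, 127, 169 and 107 CPM in the orchiectomized mice and 54.8, 64.6, 73.6, 81.02 and 55.2 CPM with DHT. All 5 DHT libraries lay below all control and all orchiectomized libraries, whose ranges overlapped each other. The level with DHT was 1.92-fold lower than in orchiectomized mice (log2 fold change -0.94, standard error 0.16, adjusted P = 0.00948) and 2.03-fold lower than in control mice (log2 fold change -1.02, standard error 0.16, adjusted P = 0.0291). Orchiectomized and control mice differed by -0.08 (adjusted P = 0.884) on the log2 scale. Without orchiectomized replicate 2 the log2 fold change of DHT-treated against untreated orchiectomized mice was -1.01 (standard error 0.17, adjusted P = 0.0108), and the call held in all 25 alternative settings of each DHT comparison, the adjusted threshold included.

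**Figure D3:**
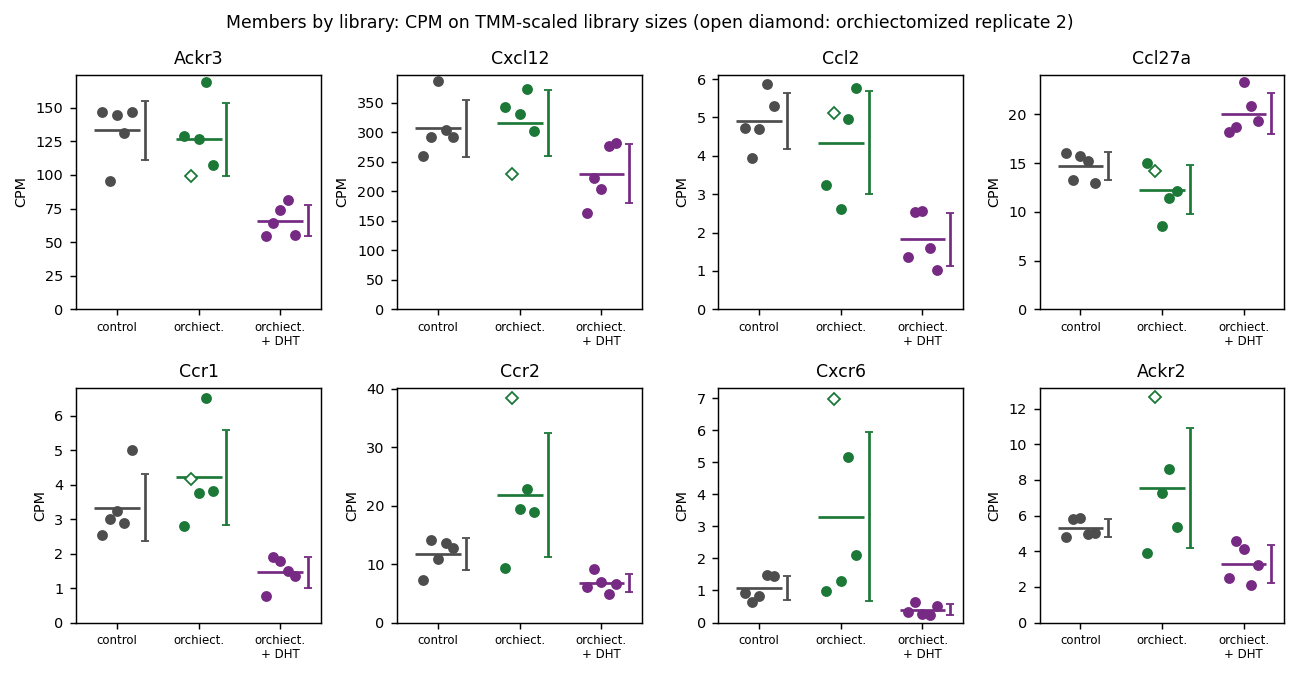
CPM of 8 members by library in the control, orchiectomized and DHT-treated orchiectomized (orchiect. + DHT) mice, with the mean (horizontal line) and SD (bar) of each group of 5. The open diamond is orchiectomized replicate 2, and the 5 DHT libraries lie below both other groups for Ackr3, Ccl2, Ccr1 and Cxcr6 and above both for Ccl27a.

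Cxcl12 is the ligand that Ackr3 shares with the signalling receptor Cxcr4. It was the most abundant member by CPM, with 259, 291, 386, 304 and 291 CPM in the control mice, 343, 228, 331, 374 and 301 CPM in the orchiectomized mice and 162, 223, 204, 277 and 281 CPM with DHT. The DHT libraries overlapped both other groups. With all libraries the change with DHT did not pass the threshold (log2 fold change -0.46, standard error 0.17, adjusted P = 0.125), and without orchiectomized replicate 2, the lowest library of its group, it was -0.54 (standard error 0.16, adjusted P = 0.0794), past the unadjusted threshold. Against control mice the values were log2 fold change -0.42, standard error 0.17, adjusted P = 0.363.

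Cxcr4, the signalling receptor of Cxcl12, varied widely between mice, with 3.35, 2.90, 9.60, 3.47 and 4.47 CPM in the control mice, 7.43, 25.02, 14.2, 7.90 and 10.8 CPM in the orchiectomized mice and 0.941, 5.86, 4.87, 2.47 and 18 CPM with DHT. Replicate 5 of the DHT group and replicate 3 of the control group stood well above the rest of their groups. The log2 fold change was 1.46 (adjusted P = 0.372) in orchiectomized against control mice and -1.02 (adjusted P = 0.346) with DHT, neither past the threshold, and the groups overlapped in each comparison. Of the 3 genes of this axis, Ackr3 was thus called lower with DHT both with and without orchiectomized replicate 2, Cxcl12 only without it and Cxcr4 in neither fit. Whether their changes differ from each other was not tested.

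Promoters were examined for the tested members with a RefSeq entry (25 members, 28 start sites), taking the 250 bases before the start in GRCm38.p6. The motifs searched on both strands were the androgen receptor half-site AGAACA, the full androgen response element (AGAACA and TGTTCT separated by 3 bases of any kind), the AP-1 site TGANTCA, the PU.1 site GAGGAAGT, the NF-kB site (GGG, 2 bases of any kind, TTTCC), the TATA box TATAAA and the GC box GGGCGG. The half-site, which is part of the full element, was present in 16.1% of all 32851 promoters and in those of Ccl22, Cxcl14, Cxcl9 and Cxcr4 among the members. The full element was found in 3 promoters of all genes and in 0 of the members'. GC boxes were found in 32.7% of all promoters, TATA boxes in 12.4%, AP-1 sites in 6.75%, PU.1 sites in 2.44% and NF-kB sites in 1.41%. The sequences of the Cxcl12 axis are shown because its genes differed in their calls, and that of Ccr1 because it was lower with DHT and holds none of these motifs. Capitals mark motif matches on either strand (half-site, TATA box or GC box), and each runs 5′ to 3′ toward the gene.
Ackr3 (chr1:90203730-90203979, plus strand): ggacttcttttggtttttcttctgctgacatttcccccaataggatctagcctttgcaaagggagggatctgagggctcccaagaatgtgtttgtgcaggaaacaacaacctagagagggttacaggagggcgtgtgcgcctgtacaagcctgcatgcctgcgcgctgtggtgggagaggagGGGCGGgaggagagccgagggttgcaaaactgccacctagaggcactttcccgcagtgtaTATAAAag
Cxcl12 (chr6:117168285-117168534, plus strand): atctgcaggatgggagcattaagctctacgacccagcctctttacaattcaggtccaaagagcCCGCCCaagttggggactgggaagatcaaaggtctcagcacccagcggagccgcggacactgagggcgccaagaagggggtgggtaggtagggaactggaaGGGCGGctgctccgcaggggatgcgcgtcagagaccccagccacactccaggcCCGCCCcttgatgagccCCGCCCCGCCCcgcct
Cxcr4 (chr1:128592300-128592549, minus strand): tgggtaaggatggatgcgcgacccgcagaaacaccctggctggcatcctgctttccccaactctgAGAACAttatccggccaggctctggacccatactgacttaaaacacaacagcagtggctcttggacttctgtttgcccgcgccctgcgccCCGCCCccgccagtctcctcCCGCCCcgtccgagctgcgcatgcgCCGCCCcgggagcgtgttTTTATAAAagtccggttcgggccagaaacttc
Ccr1 (chr9:123968693-123968942, minus strand): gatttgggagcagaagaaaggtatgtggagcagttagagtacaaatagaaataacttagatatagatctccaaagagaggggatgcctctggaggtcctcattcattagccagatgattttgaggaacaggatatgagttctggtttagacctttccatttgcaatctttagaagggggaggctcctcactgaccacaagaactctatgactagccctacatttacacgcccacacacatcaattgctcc
Positions are counted backward from the start, with -1 as the base next to it. In Ackr3 the TATA box begins at -8 and a GC box at -68. Cxcl12 holds 5 GC boxes and no TATA box, and Cxcr4 has its half-site at -185, 3 GC boxes and an overlapping pair of TATA matches, 1 on each strand. These letters are a description of the window and not evidence of binding.

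Ccl2 (also called MCP-1), the main attractant of Ccr2-bearing monocytes, was measured at 4.71, 3.93, 4.69, 5.88 and 5.29 CPM in the control mice, 3.23, 5.13, 2.62, 4.95 and 5.78 CPM in the orchiectomized mice and 1.37, 2.52, 2.56, 1.61 and 1.03 CPM with DHT. Every DHT library lay below every library of both other groups. DHT-treated mice were 2.39-fold lower than orchiectomized mice (log2 fold change -1.26, standard error 0.29, adjusted P = 0.0251) and 2.69-fold lower than control mice (log2 fold change -1.43, standard error 0.29, adjusted P = 0.0508). The change without orchiectomized replicate 2 was -1.18 (standard error 0.30, adjusted P = 0.0505). Orchiectomy itself gave -0.17 (adjusted P = 0.836). By real-time PCR in aortas at a later day of Aldo-salt, the study reported Ccl2 to be lowered by orchiectomy. The difference in day and method was not examined.

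Ccl7, a ligand of Ccr1, Ccr2 and Ccr3, was measured at 3.08, 5.24, 2.82, 5.03 and 4.11 CPM in the control mice, 2.37, 4.07, 2.10, 3.92 and 6.35 CPM in the orchiectomized mice and 0.599, 1.17, 3.33, 0.741 and 1.24 CPM with DHT. DHT replicate 3 lay within the range of both other groups and the other 4 DHT libraries lay below all libraries of them. The edgeR values were log2 fold change -1.43, standard error 0.44, adjusted P = 0.074 against orchiectomized mice and log2 fold change -1.54, standard error 0.44, adjusted P = 0.192 against control mice. Leaving out any of 6 single libraries, among them orchiectomized replicates 4 and 5, ended the first of these calls, which held without orchiectomized replicate 2, where the log2 difference was -1.40 (standard error 0.46, adjusted P = 0.11).

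Ccl2 (chr11:82035571-82037453, plus strand) and Ccl7 (chr11:82045712-82047525, plus strand) are neighbours on chromosome 11 of GRCm38, in a cluster that also holds Ccl11, Ccl12 and Ccl8 (GENCODE M21). Ccl2 overlaps Gm17268 on the opposite strand, a gene not analysed here. Ccl11, Ccl12 and Ccl8 were not called. Ccl11 (eotaxin-1), which attracts eosinophils, had group means of 25.3 CPM in control, 25.6 CPM in orchiectomized and 27.8 CPM in DHT-treated mice. Ccl8 had means of 15.2, 13.6 and 16.3 CPM and Ccl12 of 1.96, 1.72 and 1.27 CPM in the same order. Log2 fold changes with DHT against orchiectomized mice were 0.11 (adjusted P = 0.736) for Ccl11, 0.25 (adjusted P = 0.799) for Ccl8 and -0.45 (adjusted P = 0.616) for Ccl12. Whether they differed from the changes of Ccl2 and Ccl7 was not tested.

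Ccl6, a myeloid chemokine that binds Ccr1, was measured at 31.7, 65.7, 58.2, 44.2 and 93.1 CPM in the control mice, 44.4, 112, 69.5, 66.6 and 81.7 CPM in the orchiectomized mice and 20.9, 40.4, 35.9, 26.1 and 60.4 CPM with DHT. The edgeR result was log2 fold change -1.03, standard error 0.32, adjusted P = 0.0789 for DHT-treated against untreated orchiectomized mice, with overlapping ranges. The call was lost without orchiectomized replicate 2, when the log2 fold change was -0.83 (standard error 0.32, adjusted P = 0.168). Ccl6 overlaps E230016K23Rik on the opposite strand, which was at 0.292 CPM with DHT and 0.577 CPM in orchiectomized mice. Ccl9, its neighbour, and Ccl24 had log2 fold changes of -0.70 (adjusted P = 0.153) and -0.75 (adjusted P = 0.195), below the threshold for a call.

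Ccl5 (RANTES), made by T cells and other leukocytes and a ligand of Ccr1 and Ccr3, was measured at 0.997, 1.03, 1.88, 1.27 and 1.55 CPM in the control mice, 2.48, 11.4, 0.873, 7.01 and 3.01 CPM in the orchiectomized mice and 1.45, 2.43, 1.80, 1.73 and 0.931 CPM with DHT. Orchiectomized replicates 2 and 4 were the highest libraries, and replicate 3 was the lowest of all 15. Orchiectomized mice were higher than control mice with log2 fold change 1.88, standard error 0.52, adjusted P = 0.257, and DHT-treated mice were lower than orchiectomized mice with log2 fold change -1.57, standard error 0.52, adjusted P = 0.0947. Both calls were lost without orchiectomized replicate 2, where the differences were 1.32 (standard error 0.46, adjusted P = 0.604) and -1.002 (standard error 0.46, adjusted P = 0.234) on the log2 scale. The second call was lost in 16 of 25 alternative settings.

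Ccl22, a ligand of Ccr4 made by dendritic cells and macrophages, was measured at 0.091, 0.937, 0.313, 0.283 and 0.547 CPM in the control mice, 0.431, 8.49, 0.262, 2.27 and 1.87 CPM in the orchiectomized mice and 0.342, 0.541, 1.28, 0.247 and 0.103 CPM with DHT. Orchiectomized replicate 2 held 96 counts, replicates 4 and 5 held 33 and 23, and all other libraries held 1 to 10. The call in orchiectomized against control mice (log2 fold change 2.60, standard error 0.85, adjusted P = 0.3) was lost in 6 of the 10 fits without 1 other library in which the gene was still tested. Without replicate 2 too few libraries reached 10 counts for a test.

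Cxcl16, a membrane-bound ligand of Cxcr6, was measured at 9.88, 14.8, 17.4, 19.7 and 12.7 CPM in the control mice, 17.4, 36.2, 15.2, 16.97 and 15.7 CPM in the orchiectomized mice and 11.04, 13.3, 10.4, 8.40 and 10.5 CPM with DHT. Orchiectomized replicate 2 stood apart from the other 4 libraries of its group, which lay within the control range. The DHT libraries lay below all orchiectomized libraries (log2 fold change -0.92, standard error 0.25, adjusted P = 0.0476). Without replicate 2 the log2 fold change was -0.59 (standard error 0.18, adjusted P = 0.0898), still past the unadjusted threshold. The call was lost without orchiectomized replicates 2, 3 and 4 together (unadjusted P = 0.0229 in edgeR). Against control mice the DHT libraries overlapped, with a log2 fold change of -0.47 (adjusted P = 0.476). Cxcl16 overlaps Zmynd15 on the opposite strand, and whether counting used strand is not given in the sources used here. Zmynd15 itself was counted at 1.57 CPM with DHT and 3.08 CPM in orchiectomized mice, a log2 fold change of -0.96 (adjusted P = 0.0625) that passed the unadjusted threshold.

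Cxcr6, the receptor of Cxcl16 on activated T cells and natural killer T cells, had the largest fold change under DHT among the 33 tested members. It was measured at 0.906, 0.656, 0.834, 1.49 and 1.46 CPM in the control mice, 0.969, 6.98, 1.31, 5.15 and 2.12 CPM in the orchiectomized mice and 0.342, 0.631, 0.256, 0.247 and 0.517 CPM with DHT. All DHT libraries lay below all libraries of both other groups, at 2 to 7 counts each, and orchiectomized replicates 2 and 4 were the highest. The change was log2 fold change -2.996, standard error 0.55, adjusted P = 0.0114 with all libraries and -2.53 (standard error 0.51, adjusted P = 0.0215) without orchiectomized replicate 2. Without orchiectomized replicates 2, 3 and 4 together, too few libraries reached 10 counts for a test. Orchiectomized mice were higher than control mice in the fit of all libraries (log2 fold change 1.62, standard error 0.50, adjusted P = 0.283), a call lost without orchiectomized replicate 2 or 4 or control replicate 1, 2 or 3. Fyco1, which overlaps Cxcr6 on the opposite strand, was at 141 CPM with DHT and 109.9 CPM in orchiectomized mice and was not called (log2 fold change 0.36, adjusted P = 0.238).

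Ccr2, the receptor of Ccl2 and Ccl7 on inflammatory monocytes, was measured at 7.34, 14.1, 10.9, 13.6 and 12.7 CPM in the control mice, 9.37, 38.5, 19.5, 22.9 and 18.9 CPM in the orchiectomized mice and 6.16, 9.10, 6.92, 4.94 and 6.52 CPM with DHT. Every DHT library lay below every orchiectomized library, the closest pair being DHT replicate 2 and orchiectomized replicate 1. DHT-treated mice were 3.24-fold lower than orchiectomized mice (log2 fold change -1.69, standard error 0.30, adjusted P = 0.0103), and the log2 fold change without orchiectomized replicate 2 was -1.38 (standard error 0.26, adjusted P = 0.0156). Orchiectomized mice were higher than control mice (log2 fold change 0.90, standard error 0.29, adjusted P = 0.3). This call was lost in 9 of the 15 fits that left out 1 library, among them those without orchiectomized replicate 2, 3 or 4, and the log2 fold change without replicate 2 was 0.59 (standard error 0.25, adjusted P = 0.654). DHT-treated mice differed from control mice by -0.80 (adjusted P = 0.337) on the log2 scale, a difference that passed the unadjusted threshold in 6 of 25 alternative settings, among them the fit without orchiectomized replicate 2 (adjusted P = 0.183).

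Ccr1, a receptor of Ccl5, Ccl6 and Ccl7 on monocytes and neutrophils, was measured at 2.54, 2.997, 3.23, 2.90 and 5.02 CPM in the control mice, 2.80, 4.16, 3.76, 6.53 and 3.83 CPM in the orchiectomized mice and 0.770, 1.89, 1.80, 1.48 and 1.35 CPM with DHT. The DHT libraries lay below both other groups without overlap. The values were log2 fold change -1.54, standard error 0.30, adjusted P = 0.0146 against orchiectomized mice and log2 fold change -1.20, standard error 0.30, adjusted P = 0.121 against control mice. Leaving out orchiectomized replicate 2 gave -1.54 (standard error 0.32, adjusted P = 0.0238) in the first. Ccr1 was called lower in all 25 alternative settings of the comparison with orchiectomized mice.

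Cx3cr1, the fractalkine receptor of patrolling monocytes and resident macrophages, was measured at 2.36, 5.99, 3.86, 6.16 and 6.39 CPM in the control mice, 7.32, 7.78, 6.46, 5.36 and 6.11 CPM in the orchiectomized mice and 1.97, 6.67, 3.85, 1.85 and 3 CPM with DHT, and its log2 fold change of -0.92 (adjusted P = 0.132) with DHT did not pass. Its ligand Cx3cl1, the member of highest CPM among the CX3C and XC ligands, had 27.4, 31.9, 39.01, 33.1 and 28.1 CPM in the control mice, 38.98, 48.8, 32.9, 31.8 and 32.6 CPM in the orchiectomized mice and 28.1, 30.7, 30, 32.5 and 28.7 CPM with DHT. Cx3cl1 had a log2 fold change of -0.30 (adjusted P = 0.186) with DHT against orchiectomized mice and was not called.

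Ccr1, Ccr2, Cxcr6, Xcr1 and Ccr3 lie near each other on chromosome 9 of GRCm38, from Cxcr6 (chr9:123806475-123811760, plus strand) to Ccr2 (chr9:124101950-124113557, plus strand). Cxcr6, Ccr1 and Ccr2, the tested genes among these 5, were all lower with DHT than in orchiectomized mice. Ccr3, the eotaxin receptor, had 0 to 7 counts per library and was fitted only without the filter on low counts. Its log2 fold change in this comparison was -2.74 there, and -2.89 without orchiectomized replicate 2. These counts are too low to be read as a call. Xcr1, found on cross-presenting dendritic cells, had counts of 6, 5, 4, 9 and 4 in the control libraries, 3, 32, 10, 22 and 10 in the orchiectomized libraries and 1, 3, 3, 3 and 1 with DHT and was below the filter because 4 libraries alone reached 10 counts. Fitted without the filter on all libraries, Xcr1 had a log2 difference of -2.33 between DHT-treated and orchiectomized mice, which was -1.90 without orchiectomized replicate 2. The 4 libraries with 10 counts were all orchiectomized and Xcr1 was named after its values were seen, so no P is given.

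Ackr2, the scavenger of inflammatory CC ligands including Ccl2 and Ccl5 and a gene of lymphatic endothelium, was measured at 4.80, 5.81, 5.84, 4.96 and 5.02 CPM in the control mice, 3.88, 12.6, 7.25, 8.59 and 5.37 CPM in the orchiectomized mice and 2.48, 4.59, 4.10, 2.10 and 3.21 CPM with DHT. The DHT libraries lay below all control libraries, and below the orchiectomized libraries except replicate 1. The values were log2 fold change -1.19, standard error 0.29, adjusted P = 0.0328 with all libraries and -0.92 (standard error 0.26, adjusted P = 0.0712) without orchiectomized replicate 2, the highest library. The call was lost without orchiectomized replicates 2, 3 and 4 together (unadjusted P = 0.13 in edgeR). Against control mice the log2 fold change was -0.68 (adjusted P = 0.385). The summed level of 4 lymphatic endothelial genes was 19.1 to 64.2 CPM with DHT, 20.9 to 88.5 CPM in orchiectomized mice and 28.8 to 58.4 CPM in control mice, and 0 of the 4 genes were called by edgeR, by DESeq2 or at an unadjusted P under 0.05. Ackr1, a venular receptor that carries chemokines across endothelium, and Ackr4, the scavenger of Ccl19, Ccl21 and Ccl25, were not called, with log2 fold changes under DHT of 0.004 (adjusted P = 0.998) and -1.02 (adjusted P = 0.108).

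Ccl27a, a ligand of Ccr10 best known from skin, was the member that was higher with DHT. Its level was 16.04, 13.3, 15.8, 15.2 and 12.95 CPM in the control mice, 14.97, 14.2, 8.56, 11.4 and 12.1 CPM in the orchiectomized mice and 18.1, 18.7, 23.3, 20.9 and 19.3 CPM with DHT. All 5 DHT libraries lay above all libraries of both other groups. The values were log2 fold change 0.71, standard error 0.14, adjusted P = 0.016 against orchiectomized mice and log2 fold change 0.45, standard error 0.14, adjusted P = 0.244 against control mice. Without orchiectomized replicate 2 the first was 0.79 (standard error 0.14, adjusted P = 0.0133), and it held in all 25 alternative settings, whereas the call against control mice was lost in 6. Ccl27a (chr4:41769467-41774247, minus strand) overlaps Il11ra1 on the opposite strand and has a near-identical copy, Ccl27b, listed at 0 in every library, so its reads cannot be assigned with certainty. Il11ra1 was far more abundant, at 309.5 CPM with DHT and 289.9 CPM in orchiectomized mice, and was not called (log2 fold change 0.09, adjusted P = 0.826). Ccr10, the receptor, had group means of 2.79, 2.02 and 2.55 CPM in control, orchiectomized and DHT-treated mice and was not called.

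Members whose groups did not overlap in CPM were also counted. In DHT-treated against orchiectomized mice 7 tested members (Ackr3, Cxcl16, Ccl2, Cxcl1, Cxcr6, Ccr1 and Ccr2) had all DHT libraries below all orchiectomized libraries, against 4.38% of all tested genes. Against control mice 5 members (Ackr3, Ccl2, Ackr2, Cxcr6 and Ccr1) did so, against 1.78%, and Ccl27a lay above without overlap in both (2.05% and 1.78%). Between orchiectomized and control mice 0 members were separated in either direction, against 0.994% of all tested genes that were higher and 0.507% that were lower. Cxcl1, a neutrophil attractant, had 0.247 to 0.828 CPM with DHT and 0.873 to 3.12 CPM in orchiectomized mice, and it missed the unadjusted threshold in edgeR (adjusted P = 0.103).

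Lymphoid chemokines and receptors were examined as pairs. Cxcl13, which attracts B cells, varied more between mice than between groups, with 3.08, 7.12, 8.87, 43.8 and 6.48 CPM in the control mice, 2.26, 17.4, 6.20, 12.2 and 12.5 CPM in the orchiectomized mice and 2.99, 10.1, 2.18, 2.22 and 14.6 CPM with DHT. Control replicate 4 was the highest library and lay far above the rest of its group. No comparison was called, the log2 fold changes being -0.46 (adjusted P = 0.834) for orchiectomy and -0.65 (adjusted P = 0.661) for DHT against orchiectomy. For orchiectomy the medians ran the other way, at 7.12 CPM in control and 12.2 CPM in orchiectomized mice. Its receptor Cxcr5, on B cells and follicular helper T cells, was not tested because 3 libraries alone reached 10 counts. The counts of Cxcr5 were 4, 5, 3, 8 and 3 in the control libraries, 4, 97, 27, 76 and 8 in the orchiectomized libraries and 5, 1, 1, 5 and 3 with DHT. Only orchiectomized replicates 2, 3 and 4 stood out. The sum of 7 genes listed for lymph node stroma and high endothelial venules was 54.1, 11.3 and 25.1 CPM in these libraries and 1.45 to 8.14 CPM in all others. Its log2 difference between DHT-treated and orchiectomized mice without the filter was -3.37, and -2.78 when replicate 2 was also left out. Only orchiectomized libraries reached 10 counts of Cxcr5, so no P is given.

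Ccl19, a T zone chemokine, was measured at 1.81, 2.34, 2.30, 1.63 and 1.55 CPM in the control mice, 2.58, 3.71, 2.45, 2.34 and 2.85 CPM in the orchiectomized mice and 2.31, 3.69, 3.59, 1.85 and 2.90 CPM with DHT. The ranges overlapped, and the log2 fold changes were 0.53 (adjusted P = 0.4) in orchiectomized and 0.58 (adjusted P = 0.376) in DHT-treated orchiectomized against control mice, neither called. Ccl21a, the other ligand of Ccr7, was listed at 0 in every library. Ccr7, on naive T cells and mature dendritic cells, had counts of 4, 4, 8, 5 and 6 in the control libraries, 5, 60, 6, 31 and 8 in the orchiectomized libraries and 2, 4, 2, 3 and 3 with DHT, with orchiectomized replicates 2 and 4 above the rest. Its log2 difference was -2.55 in the same unfiltered fit and -1.71 there without replicate 2. Only orchiectomized libraries reached 10 counts of Ccr7, so no P is given. Ccr6, on B cells and a subset of T cells, had 12, 5 and 29 counts in orchiectomized replicates 2, 3 and 4 and 0 to 2 counts in the other libraries. Ccr9, a receptor of thymocytes, had 86 counts in orchiectomized replicate 3, the library with the thymus transcripts, and 0 to 8 in the others. Ccl25, its ligand from thymic epithelium, had its highest level of 5.15 CPM in the same library, against 0.977 to 2.40 CPM in the other 14.

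**Figure D4:**
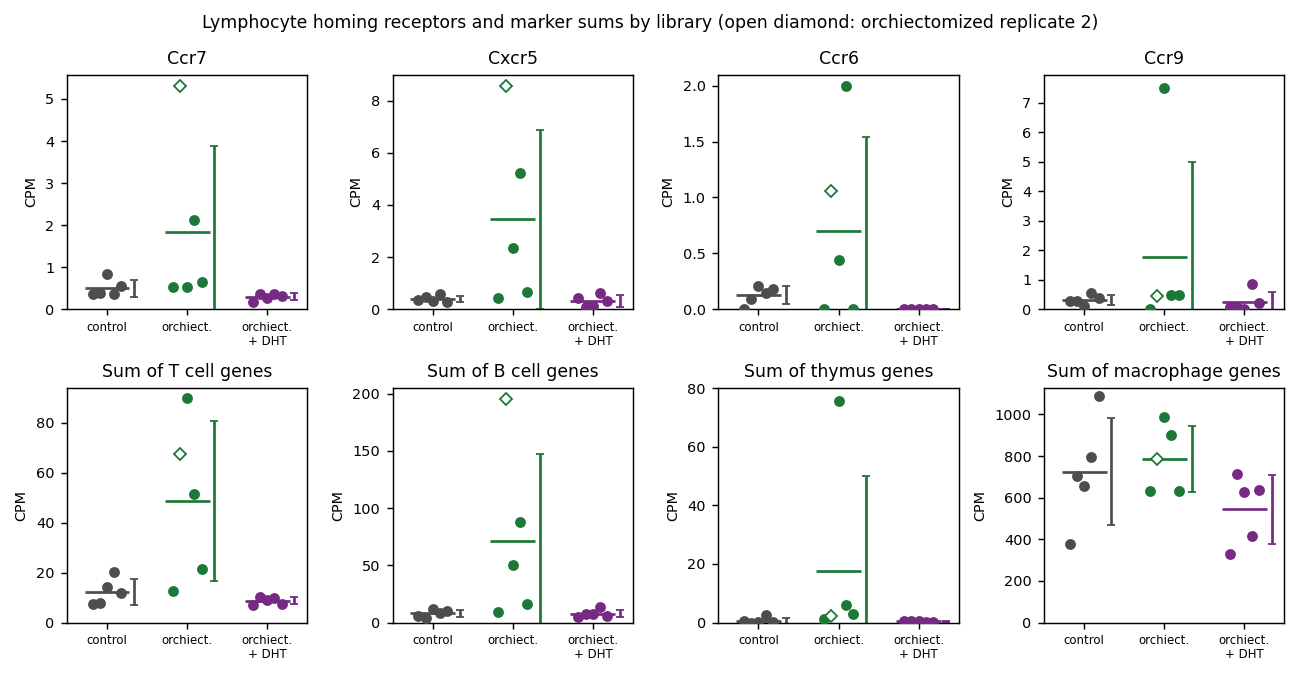
CPM of the lymphocyte receptors Ccr7, Cxcr5, Ccr6 and Ccr9 (upper row) and summed CPM of T cell, B cell, thymus and macrophage genes (lower row) by library, with group mean (line) and SD (bar, cut at 0) over 5 mice. The open diamond is orchiectomized replicate 2. Values of the lymphocyte receptors above 1 CPM occurred only in orchiectomized libraries, while the macrophage sums of the 3 groups overlapped.

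Among the remaining ligands, Cxcl9, the interferon-induced ligand of Cxcr3 with the highest CPM in its role, was measured at 6.16, 2.997, 5.63, 3.54 and 7.85 CPM in the control mice, 3.77, 3.18, 3.06, 7.97 and 6.92 CPM in the orchiectomized mice and 2.40, 7.93, 5.77, 5.43 and 5.59 CPM with DHT. It showed no call and overlapping ranges, with a log2 fold change of 0.12 (adjusted P = 0.896) for DHT against orchiectomy. Cxcl10 had a log2 fold change of -0.78 (adjusted P = 0.386) there. Cxcr3, their receptor, had 1.18 (adjusted P = 0.39) for orchiectomy and -1.39 (adjusted P = 0.134) for DHT. Cxcl14, a homeostatic chemokine, had 52.2 CPM in orchiectomized replicate 2 and 5.17 to 12.4 CPM in the other orchiectomized libraries. Leaving out that library changed its log2 fold change for orchiectomized against control mice from -0.004 to -1.08 (standard error 0.38, adjusted P = 0.605), and for DHT against orchiectomy from -0.41 to 0.67 (standard error 0.38, adjusted P = 0.338). Neither value passed the threshold. Ccl4, a chemokine of activated leukocytes that the study also assayed by PCR, had 0 to 6 counts per library and was below the filter on low counts. Its counts were 1, 3, 2, 2 and 2 in the control libraries, 4, 6, 0, 2 and 3 in the orchiectomized libraries and 1, 3, 2, 1 and 1 with DHT. Fitted without the filter, its log2 fold change was 0.48 (adjusted P = 0.784) for orchiectomy and -0.58 (adjusted P = 0.659) for DHT against orchiectomy, neither called.

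**Figure D5:**
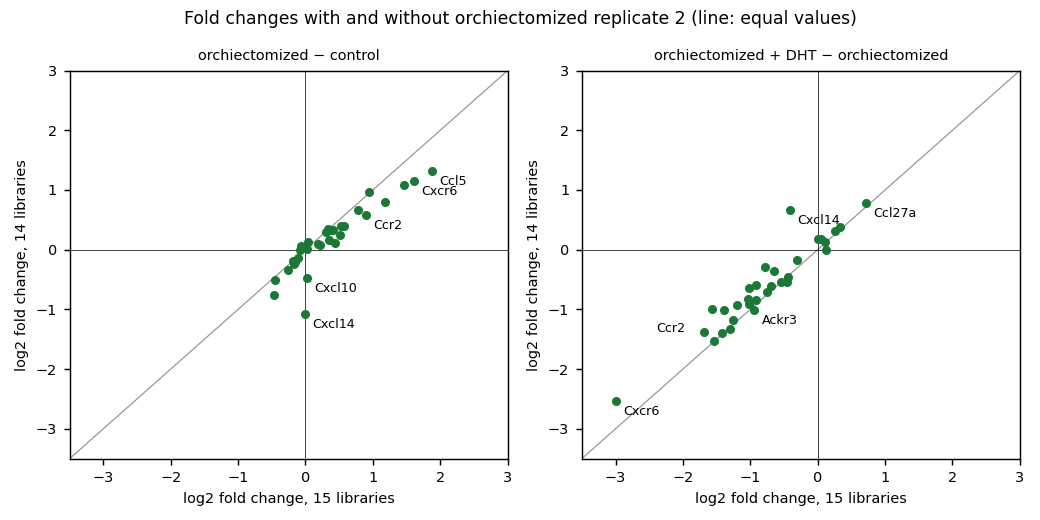
Log2 fold changes of 31 of the 32 members tested in both fits, with all 15 libraries (x axis) and without orchiectomized replicate 2 (y axis), for orchiectomized against control mice (left) and DHT-treated against untreated orchiectomized mice (right). The line marks equal values, and Cxcl14 is the member farthest from it.

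Transcripts of leukocytes moved with these members. In DHT-treated against orchiectomized mice, 11 of 11 tested T cell genes, 7 of 7 B cell genes, 6 of 7 dendritic cell genes, 5 of 6 pan-leukocyte genes, 5 of 6 neutrophil genes, 2 of 6 monocyte genes and 2 of 12 macrophage genes were lower at an unadjusted P under 0.01. Summed T cell genes ranged over 7.61 to 20.2 CPM in control, 12.8 to 89.9 CPM in orchiectomized and 7.02 to 10.4 CPM in DHT-treated mice. The pan-leukocyte sums were 93.2 to 187, 159 to 478 and 82.8 to 148 CPM in the same order, and the macrophage sums 377 to 1090, 630 to 986 and 328 to 713 CPM. Without orchiectomized replicate 2, 5 of 7 T cell genes, 7 of 7 B cell genes, 3 of 7 dendritic cell genes, 5 of 6 pan-leukocyte genes, 2 of 5 neutrophil genes, 1 of 4 monocyte genes and 1 of 12 macrophage genes were lower. Their part in the lower level of the leukocyte receptors Ccr1, Ccr2 and Cxcr6 and of Ccl5 was not tested. In whole aortas, fewer cells of a type and less RNA per cell cannot be told apart.

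In DHT-treated against control mice, 0 of the 11 T cell, 7 B cell, 12 macrophage, 6 monocyte, 7 dendritic cell and 6 pan-leukocyte genes tested were called by edgeR, while Ccr1, Ccl2, Ccl7 and Ackr3 were lower and 2 of 6 neutrophil genes (S100a8 and S100a9) were higher. At an unadjusted P under 0.05, 5 macrophage, 2 pan-leukocyte and 1 monocyte gene were lower there and 0 genes of the other 3 lists were, and DESeq2 called 1 macrophage and 1 pan-leukocyte gene lower at 0.01. In the fit without orchiectomized replicate 2, edgeR called 1 of 6 pan-leukocyte genes lower and 2 of 5 neutrophil genes higher. Among genes of the vessel wall and its surroundings, 4 of 9 endothelial genes (Ptprb, Pecam1, Tek and Vwf), 2 of 8 fibroblast genes (Lum and Pi16) and 5 of 6 mesothelial genes were lower in that comparison, and 0 of 7 smooth muscle genes were called by edgeR or DESeq2, with 3 higher at an unadjusted P under 0.05. With orchiectomized replicate 2 left out of the fit, edgeR called 2 of the 7 higher (Lmod1 and Smtn) and DESeq2 called 4. Against orchiectomized mice, 4 of 9 endothelial, 3 of 8 fibroblast and 6 of 6 mesothelial genes were lower with DHT and 1 fibroblast gene was higher. Without replicate 2, 3 of 9 endothelial, 4 of 8 fibroblast and 6 of 6 mesothelial genes were lower and 1 fibroblast gene was higher. For smooth muscle in that comparison, edgeR called 0 of 7 genes, with 5 higher at an unadjusted P under 0.05, and DESeq2 called 2 higher (0 without replicate 2). The mesothelial sums were 34.5 to 96.2 CPM in control, 46.7 to 380 CPM in orchiectomized and 8.85 to 24.1 CPM in DHT-treated mice. The 380 CPM was that of orchiectomized replicate 2, and the orchiectomized range was 46.7 to 88.6 CPM without it. In the same order, the fibroblast sums were 2950 to 4420, 3090 to 4480 and 2100 to 3440 CPM. The endothelial sums were 956 to 1440, 1110 to 1660 and 772 to 1040 CPM, and the smooth muscle sums 14100 to 20300, 10300 to 20500 and 19700 to 24600 CPM. The part of these cell types in the levels of Ackr3, Ccl2, Ccl7 and Cxcl12 was not tested.

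In orchiectomized against control mice 9 of 11 T cell, 7 of 7 B cell, 5 of 6 neutrophil, 3 of 7 dendritic cell, 3 of 6 pan-leukocyte and 2 of 6 monocyte genes were higher, with 0 of 12 macrophage genes called by edgeR, by DESeq2 or at an unadjusted P under 0.05. Without replicate 2 these were 3 of 7 T cell, 6 of 7 B cell, 4 of 5 neutrophil, 1 of 7 dendritic cell, 2 of 6 pan-leukocyte and 1 of 4 monocyte genes. The 4 members called in this comparison had their highest level in orchiectomized replicate 2. This library was the highest of the 5 orchiectomized libraries for 18 of the 33 tested members and for 33.2% of all tested genes.

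Chemokine receptors signal through the Gi class of G proteins to phosphoinositide 3-kinase gamma and to the small GTPases Rac and Rap, which drive movement and adhesion, and receptor kinases, arrestins and RGS proteins end the signal. A list of 63 genes held these groups together with 8 genes around the induction of chemokines (called inducers) and 8 genes of ligand processing and related receptors, and 57 of the 63 were tested. With DHT against orchiectomy 17 were lower, against 7.35% of all tested genes, 10 of them at an adjusted P under 0.05 (3.89%), and 1 was higher (2.44%). Without orchiectomized replicate 2, 13 were lower (5.22%), 2 of them after adjustment (1.92%). The median log2 fold change was -0.31 with all libraries and -0.19 without this replicate. The lower genes included 7 of 11 in the control of Rac and Rap, 3 of 7 in the phospholipase C, phosphoinositide 3-kinase and protein kinase C group, 2 of 6 RGS genes and 0 of 8 G protein genes (edgeR and DESeq2, 1 lower at an unadjusted P under 0.05). Without replicate 2 these counts were 6 of 11, 1 of 7 (Pik3cg), 1 of 6 (Rgs14) and 1 of 8 (Gnai3). Rac2, the Rac GTPase of blood cells, was at 9.27 CPM with DHT and 25.7 CPM in orchiectomized mice (log2 fold change -1.47, standard error 0.35, adjusted P = 0.0296). Dock2, which activates Rac in lymphocytes, was at 7.09 and 21.5 CPM (log2 fold change -1.60, standard error 0.36, adjusted P = 0.0244). Pik3cg, the catalytic subunit of phosphoinositide 3-kinase gamma, was at 3.23 and 7.67 CPM (log2 fold change -1.25, standard error 0.36, adjusted P = 0.0576).

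Dpp4, a protease that trims the ends of several chemokines including Cxcl12, was lower with DHT than in both other groups. Its mean was 3.39 CPM with DHT, 18.0 CPM in orchiectomized and 13.4 CPM in control mice (log2 fold change -2.39, standard error 0.34, adjusted P = 0.00362 and log2 fold change -1.96, standard error 0.34, adjusted P = 0.0318). Cmklr1, the chemerin receptor, was at 36.4, 57.1 and 52.8 CPM in the same order (log2 fold change -0.65, standard error 0.15, adjusted P = 0.0262 against orchiectomized mice). Rasgrp2, which activates Rap, was the listed gene that was higher with DHT, at 78.6 CPM against 50.9 CPM in orchiectomized and 48.8 CPM in control mice (log2 fold change 0.63, standard error 0.11, adjusted P = 0.0105 and log2 fold change 0.69, standard error 0.11, adjusted P = 0.0291). Rap1b itself was lower (log2 fold change -0.43, standard error 0.10, adjusted P = 0.0239 against orchiectomized mice). The calls of Rac2, Dock2, Pik3cg, Dpp4, Cmklr1, Rasgrp2 and Rap1b against orchiectomized mice all held without orchiectomized replicate 2. In orchiectomized against control mice 3 of the 57 genes were higher, against 2.11% of all tested genes (Nfkbia, an NF-kB inhibitor kept on the inducer list, Rac2, and Cd74, a receptor of Mif, of which Rac2 alone stayed called without replicate 2), and 1 was lower (1.12%), Grk3, a receptor kinase, at 53.4 CPM in orchiectomized and 96.4 CPM in control mice (log2 fold change -0.85, standard error 0.23, adjusted P = 0.254). Their median was 0.19 there and -0.10 in DHT-treated orchiectomized against control mice, where 3 were lower (2.01% of all tested genes) and 1 was higher (1.53%).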

How the data were processed

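RNA-Seq was performed by the authors on poly(A)-selected RNA of 15 cleaned aortas, and each library was grouped and numbered by its labels. The deposited files hold unnormalized counts of reads for each gene symbol. Their processing notes name STAR, Cufflinks, DESeq2 and mm10, and the counting program and its use of strand are not given in the sources used here. The 2 entries that are not genes, reads on no gene (6.26% to 14.4% of reads) and on several genes (1.34% to 1.97%), were left out. Gene positions and exon lengths came from GENCODE M21 (GRCm38), and promoters from RefSeq (GRCm38.p6).

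Genes with 10 or more counts in at least 5 libraries were fitted in R 4.3.3 with edgeR 4.0.16 (TMM, quasi-likelihood, 3 groups, no covariate), checked on simulated data. The biological coefficient of variation was 0.298. Calls used an unadjusted P under 0.01, with Benjamini-Hochberg adjustment over all tested genes. P values measure the spread between these mice.

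The members were given by gene symbol, and they and the marker and signalling lists were chosen with earlier results of these data known. Values in every library are given for members called in any comparison with or without orchiectomized replicate 2, for Ccl2, Ccl4, Ccl19, Ccl21a, Ccr7, Cxcl13, Cxcr5, Cxcl12, Cxcr4 and Ackr3, and for the member of highest mean CPM in each role. Members with values beyond this rule (such as Cxcl17, Ccl20, Cxcl5 and Ccl17 in the lung library, Ccr6, Ccr9, Ccl25, Xcr1, Cxcl1, Cxcl14 and the neighbours of Ccl2) were named after their values were seen. Alternatives were RLE scaling, DESeq2 1.42.0, limma 3.58.1 voom with quality weights, other filters, only the groups compared, the replicate number as a block, the adjusted threshold and leaving out each library. Leaving out orchiectomized replicates 2, 3 and 4 together was chosen after seeing the data. Counts of called genes are the values compared. The values of 1 tested member are not reported here, but it is included in the counts. Figures were drawn with matplotlib.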

Additional observations from a re-analysis of the deposited data

Results flagged for a closer look

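Within each group of 5 mice, a library was singled out when its gap to the nearest other library took up more of the group's range than Dixon's 95% critical value of 0.71. The test covered 62 groups of values of the members taken by the rule for values in every library, which left out others such as Cxcl17, and singled out 8 values, and chance alone singles out about 5% of groups. The 8 values are not set against that share, since members such as Cxcl15 were described because of a high library. In orchiectomized replicate 2, the library with the lung transcripts, Ccl22 was at 8.49 CPM (next highest 2.27), Cxcl15 at 328 CPM (next 0.481) and Cxcl16 at 36.2 CPM (next 17.4). Ccl7 was at 3.33 CPM in DHT replicate 3, against 1.24 CPM in the next library. In control replicate 5, Ccr1 was at 5.02 CPM (next 3.23). Cxcl13 was at 43.8 CPM in control replicate 4, against 8.87 CPM in the next library. Cxcr4 was at 9.60 CPM in control replicate 3 (next 4.47) and at 18.0 CPM in DHT replicate 5 (next 5.86).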

How the results depend on the processing

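The number of members called higher in orchiectomized against control mice was 4, and it was 10 with no filter on low counts, 2 with 10 or more counts in at least 10 libraries, 2 with only the groups compared, 2 with voom and quality weights, 0 at the adjusted threshold, 0 without orchiectomized replicates 2, 3 and 4 together, and 0 (without orchiectomized replicate 2) to 4 when 1 library was left out. It was also 1 without control replicate 1 or 3 or orchiectomized replicate 4, and 2 without control replicate 2, 4 or 5 or DHT replicate 3. The 11 members lower with DHT than in orchiectomized mice became 20 with no filter, 7 at the adjusted threshold, 4 (Ackr3, Ccl2, Ccr1 and Ccr2) without orchiectomized replicates 2, 3 and 4 together, and 7 (without DHT replicate 1) to 13 (without orchiectomized replicate 1) when 1 library was left out. In DHT-treated orchiectomized against control mice, the 1 higher member became 2 with voom, 0 at the adjusted threshold, and 0 (without control replicate 2 or 5 or DHT replicate 3) to 1 when 1 library was left out, and the 4 lower members became 1 at the adjusted threshold and 4 to 6 (without control replicate 1) when 1 library was left out. The causes were not tested, except that fits without the filter also tested low members such as Cxcl15 and Cxcr5. The number of genes tested and called changes with each setting. Apart from the shares printed with the earlier counts, the share of all tested genes was not set beside these counts. They therefore show how the calls moved and not how the members compare with other genes.

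The replicate numbers of the labels did not pair the mice: the 15 same-numbered pairs of libraries had correlations of their deviations from -0.463 to 0.46, 4 of them over 0.1. With the replicate number as a block, 1 member was higher in orchiectomized against control mice, and in DHT-treated orchiectomized against control mice 0 were higher and 7 lower.

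Of 1473 alternative values of named members' fold changes, 1358 kept direction and side of the threshold, 92 lost and 23 gained a call, 0 called values changed sign, and 33 uncalled values did. Scaling by RLE or DESeq2 moved the median of all genes by less than 0.1. Members with fewer than 10 counts in every library, such as Ccl4, Ccr3 and Cxcr1, were tested only without the filter. Their fit without orchiectomized replicate 2 was chosen after seeing the data.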
